A study of Mus musculus with 6 samples.

Results

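Dup-C and Dup-L are mouse genotypes that carry duplications of different extent at the Sox9/Kcnj locus on chromosome 11, and they make up 2 of the 6 libraries of the series, with 1 library each. Both libraries are capture Hi-C of limb buds at E12.5, an assay in which DNA ends that lie near each other in the nucleus are ligated, enriched with probes for a chosen region and counted as contacts between bins of 10 kb. Both duplications end at 112520000 in mm9 and differ in where they start, at 110770001 in Dup-C and at 110960001 in Dup-L. WT limb buds of the same stage, also 1 library, are given beside them as the unduplicated reference. No further allele or treatment is named in the labels for these 3 libraries. The labels name limb buds and the design text distal limbs. Neither gives the number of embryos pooled per library, the zygosity of the mutants or whether a line is 1 clone. Contact maps hold no expression, so the labelled tissue could not be checked against marker genes.

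Chromatin is folded into domains within which an enhancer and a promoter meet far more often than across the boundary between domains. Sox9, which encodes a regulator of chondrocyte and testis differentiation, and its long-range enhancers lie on the telomeric side of the boundary at this locus. Kcnj2 and Kcnj16, which encode inwardly rectifying potassium channels, lie on its centromeric side. A tandem duplication that spans a boundary can bring its own ends together in a new domain between the copies. In the published description of these mice, the larger duplication, Dup-C, takes in Kcnj2 and Kcnj16, and Dup-L stops short of Kcnj2. The RefSeq table for GRCm38 lists the genes in the order Map2k6, Kcnj16, Kcnj2, Gm11677, Sox9. Only their order was taken from it, since its build differs from that of the maps. The comparison of Dup-C with Dup-L asks what the additional stretch, and whatever it holds, contacts once it lies inside the repeat.

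The ends divide the map, chr11:109010001-114880000, into 6 pieces. E, chr11:110770001-110960000, is the extra stretch of 190 kb that only Dup-C duplicates. P, chr11:110960001-111380000, and Q, chr11:111390001-112520000, are duplicated in both genotypes. They meet at the boundary bin, chr11:111380001-111390000, with P on the centromeric side and Q on the telomeric side. P is 420 kb long and Q 1130 kb. The flanks, chr11:109010001-110770000 on the centromeric side and chr11:112520001-114880000 on the telomeric side, are duplicated in neither. No gene was placed in these intervals, because only the gene order was taken. Whether Sox9 itself lies in Q or in the telomeric flank was therefore not determined here.

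Depth differed between the libraries. Dup-C held 4144258 contacts, Dup-L 8244295 and WT 7051882, and 83.8%, 95.2% and 96.1% of the 172578 possible bin pairs were filled. Counts were compared after scaling on pairs inside a flank that lie 2 or more bins apart, of which Dup-C held 966129 and Dup-L 2257372 contacts. Dup-C was therefore multiplied by 2.34 to be set against Dup-L. A fold below is the ratio of scaled counts and is followed by its exact 95% binomial interval, which covers counting error only and not the error of the scale. Whether duplicate reads were removed is not stated, so contacts may not be independent molecules. With 1 library per genotype no test between genotypes was possible, and differences between embryos cannot be told apart from differences between genotypes.

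The copies of E were visible as a step in the contact sums of single bins. The last bin before E, chr11:110760001-110770000, had 15391 contacts in WT, 15382 in Dup-L and 6417 in Dup-C, a ratio of Dup-C to Dup-L of 0.99 where the median bin of the flanks is 1. The first bin of E, chr11:110770001-110780000, had 19058, 19006 and 14930 contacts and a ratio of 1.86, and the next bin a ratio of 2.22. The values of E thus left those of the flank within a single bin. At the other end of E the ratio went from 2.21 in its last bin, chr11:110950001-110960000, to 1.08 in the first bin of P, chr11:110960001-110970000. There Dup-L itself went from 1.06 to 1.98 times WT. These ends were located earlier in the same maps from contact sums per bin, so the steps describe the choice of E and do not support it.

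Within E the ratio of Dup-C to Dup-L ran from 1.86 to 2.24 over 19 bins, with a median of 2.17. Same-bin contacts, which do not depend on what E contacts at a distance, gave a median of 2.01. Both values are close to 2, and in Dup-L E stayed at a median of 1.02 times WT. The stretches that both genotypes duplicate were also higher in Dup-C, with a median ratio of 1.16 over the 42 bins of P and of 1.14 over the 113 bins of Q (1.11 and 1.12 from same-bin contacts). Over WT, P stood at 2.20 in Dup-C and 1.90 in Dup-L, and Q at 2.00 and 1.76. The contact levels of P and Q were therefore not matched between the libraries. The bin sums of P and Q include contacts with E, and whether their copy number differed was not tested. How far these levels enter the folds within and between P and Q was not tested either.

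**Figure D1:**
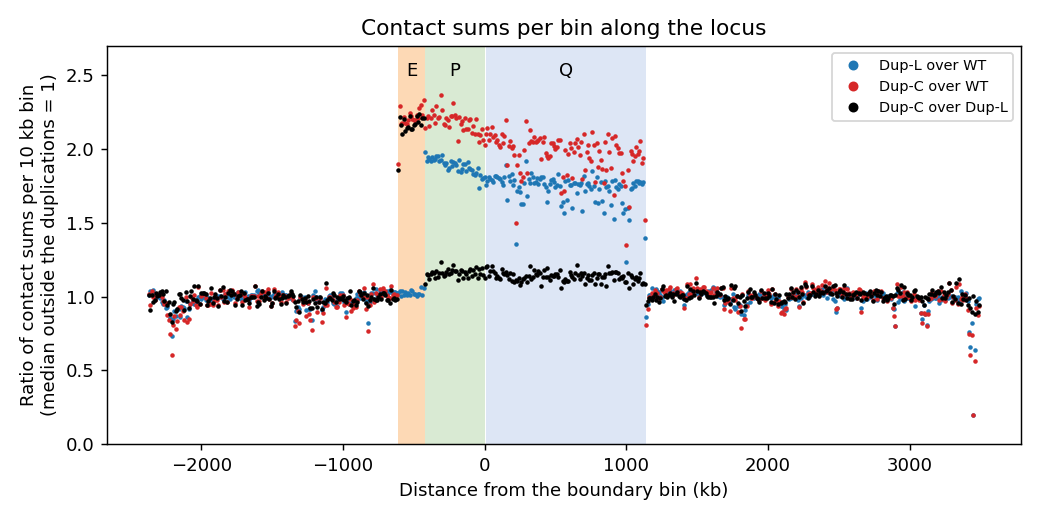
Ratio of contact sums per 10 kb bin (contacts 2 or more bins apart) against distance from the boundary bin in kb, with 1 point per bin; ratios are set to a median of 1 over the bins outside the duplications, and E, P and Q are shaded. Dup-C over Dup-L (black) stands at a median of 2.17 in E and at 1.16 and 1.14 in P and Q, where Dup-L over WT (blue) and Dup-C over WT (red) are both raised.

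E contacted Q, on the telomeric side of the boundary, far more often in Dup-C than in Dup-L. The mean per bin pair was 15.6 contacts in WT, 21.4 in Dup-L and 125.5 in Dup-C, each on the scale of WT, from 33443, 43212 and 108209 counted contacts. Dup-C therefore stood 5.85-fold above Dup-L (5.79 to 5.92), and 8.06-fold above WT (7.96 to 8.16). Dup-L stood 1.38-fold above WT (1.36 to 1.40). In the balanced (KR) maps, in which every bin has the same sum, the fold of Dup-C over Dup-L was 3.40, and Dup-L was at 0.983 of WT. Dup-C thus stood above Dup-L in both kinds of map, while the smaller excess of Dup-L over WT was seen only in the raw map. In the raw map the fold of 5.85 lay above 2.17, the median ratio of the bin sums of E. The balanced maps even out bin sums, so 3.40 is not set against that ratio. How far the added copies enter these folds was not tested.

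Every bin of E took part. Over the 19 bins the fold of Dup-C over Dup-L in contacts with Q ran from 4.85 to 6.86, with a median of 5.83. The lowest was that of chr11:110950001-110960000, next to the start of Dup-L, with 1837 contacts in Dup-L and 3815 in Dup-C (4.59 to 5.13). The highest was that of chr11:110780001-110790000, the second bin of the Dup-C segment, with 1487 and 4369 contacts (6.47 to 7.29). Dup-L over WT ranged over the same bins only from 1.31 to 1.47. No part of E, at this bin size, was left out of the contacts with Q in Dup-C. The ends of E were located from contact sums that include those with Q, so this is partly set by the choice of E.

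Along Q, the contacts of E were distributed differently in Dup-C. In WT the block next to the boundary, chr11:111390001-111490000, had 31.1 contacts per pair with E and the other 10 blocks of about 100 kb had 13.0 to 15.8. Dup-L likewise had its highest value, 39.4, next to the boundary and 18.2 to 22.0 beyond it. In Dup-C the block next to the boundary had 138, the third block, chr11:111590001-111690000, had 76.9 and the last block, chr11:112390001-112520000, had 203. The end of Q, farthest from E on the reference, was its most frequent partner within Q in Dup-C and among its least frequent in WT and Dup-L. The fold of Dup-C over Dup-L was 3.50 (3.40 to 3.61) in the block next to the boundary and 11.1 (10.8 to 11.5) in the last. The first block beyond the shared end, chr11:112520001-112620000, had 13.5 contacts per pair with E in WT, 8.43 in Dup-L and 16.4 in Dup-C. The level in Dup-C dropped from 203 to 16.4 across that end, and the fold of Dup-C over Dup-L from 11.1 to 1.94 (1.80 to 2.09).

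**Figure D2:**
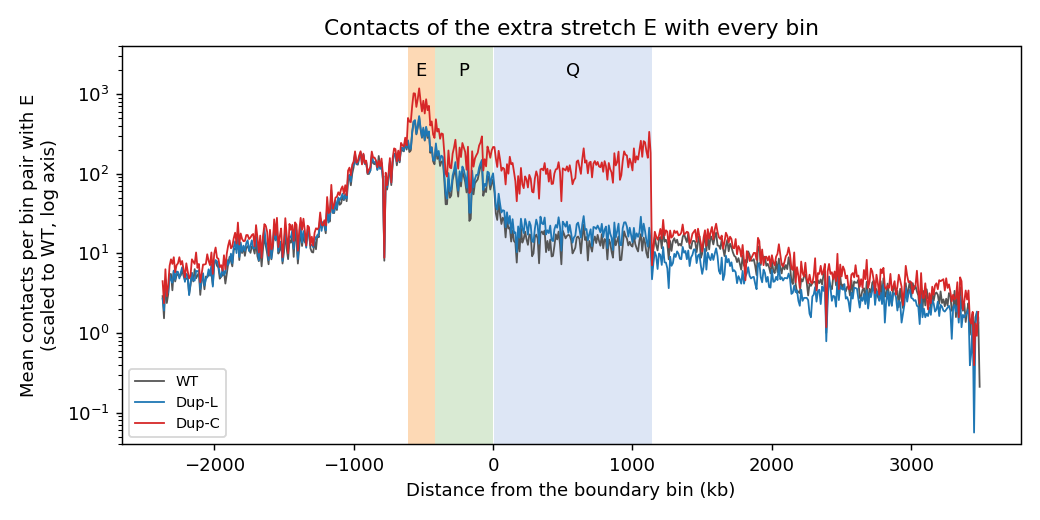
Mean contacts per bin pair between E and every other bin (log axis, scaled to WT) against distance from the boundary bin in kb, for WT, Dup-L and Dup-C, 1 library each. Over Q, Dup-C lies at 76.9 to 203 contacts per pair in blocks of about 100 kb and Dup-L at 18.2 to 39.4, and the Dup-C curve drops at the end of Q.

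The share of its own contacts that E gave to each piece does not depend on the scale between libraries. Q received 10.3% of the contacts of E in WT (exact 95% interval 10.2 to 10.4), 13.3% in Dup-L (13.2 to 13.4) and 36.4% in Dup-C (36.3 to 36.6). The centromeric flank received 43.8%, 42.8% and 22.5%. In the raw map of Dup-C, Q and not the flank was the piece with the largest share. The shares within E itself, at 14.4%, 14.0% and 14.1%, and with P, at 21.8%, 23.7% and 21.3%, differed by at most a few percentage points. The telomeric flank received 9.12%, 5.74% and 5.10%. In the balanced maps the share of Q was 9.11% in WT, 9.41% in Dup-L and 29.3% in Dup-C, and that of the centromeric flank 45.0%, 50.3% and 33.1%. There the flank kept the largest share in Dup-C too.

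**Figure D3:**
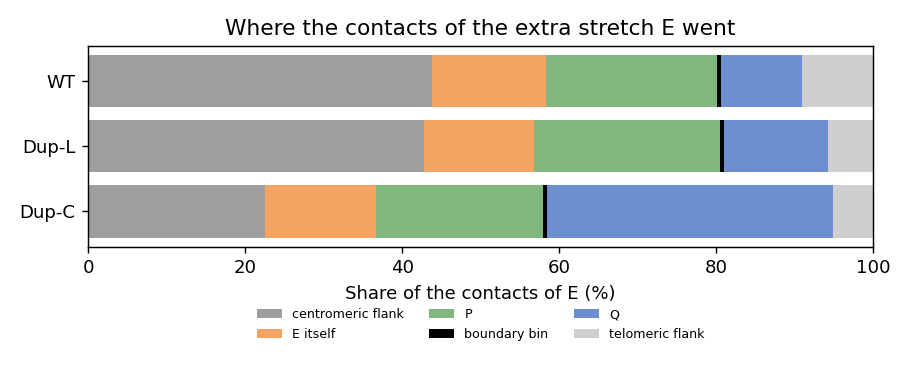
Share in percent of the contacts of E (2 or more bins apart) with the centromeric flank, E itself, P, the boundary bin, Q and the telomeric flank, as stacked bars for WT, Dup-L and Dup-C, 1 library each. Q holds 10.3% in WT, 13.3% in Dup-L and 36.4% in Dup-C.

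With the pieces on its own side of the boundary, E changed less between the genotypes. E with E had 307 contacts per pair in WT, 317 in Dup-L and 683 in Dup-C, a fold of Dup-C over Dup-L of 2.15 (2.13 to 2.18), near the ratio of the bin sums from which E was chosen. E with P had 89.0, 103 and 197 contacts per pair and a fold of 1.91 (1.89 to 1.93). The centromeric flank, which borders E in every genotype, had 42.6, 44.4 and 49.8 contacts per pair with E and a fold of only 1.12 (1.11 to 1.13). The copies of E were thus accompanied by about 2-fold contacts with E and P in the raw map, but not with the flank. In the balanced maps the folds were 0.830 for E with itself, 1.11 for E with P and 0.720 for E with the centromeric flank. For E with itself and with the flank the direction therefore differed between raw and balanced maps, and the cause was not tested.

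In the raw map, folds differed between the bins of E. The first bin, chr11:110770001-110780000, had the lowest folds of all 19 with E itself (1.91), with P (1.53) and with the telomeric flank (1.46). The last bin, next to P, had the highest fold with P, 2.19 (2.11 to 2.27). In the balanced maps the first bin stood at 0.863 with E, where the 19 bins ran from 0.747 to 0.879. It was the lowest there only with P (1.02) and with the telomeric flank (1.05). The last bin, at 1.177 with P, lay below the bin before it, at 1.185. With the centromeric flank all 19 bins lay between 1.08 and 1.17. E therefore stood above Dup-L in every bin and with every piece in the raw map, by least with the flank beside it.

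Along the centromeric flank the fold of E depended on distance. The farthest block, chr11:109010001-109110000, had 3.92 contacts per pair with E in WT, 4.08 in Dup-L and 5.73 in Dup-C, a fold of Dup-C over Dup-L of 1.40 (1.24 to 1.58). The block chr11:110410001-110510000, which had 137 contacts per pair in WT, 136 in Dup-L and 143 in Dup-C, had a fold of 1.05 (1.02 to 1.07). The block that borders E, chr11:110710001-110770000, had 195 contacts per pair in WT, 205 in Dup-L and 223 in Dup-C and a fold of 1.09 (1.06 to 1.11). In the raw maps these strong flank contacts of E thus differed little between the 3 libraries, with Dup-C at 1.04 and 1.14 times WT in the last blocks named. In the balanced maps the direction differed, with Dup-C over Dup-L at 0.666 and 0.715 there.

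Against WT, contacts of E with the telomeric flank were lower in Dup-L and higher in Dup-C in the raw maps. E with the telomeric flank had 6.61 contacts per pair in WT, 4.44 in Dup-L and 8.42 in Dup-C. In Dup-L, where E lies outside the repeat and an added copy of P and Q would separate it from that flank, this was 0.671 of WT (0.659 to 0.684). In Dup-C, where E is itself repeated, it was 1.27-fold WT (1.25 to 1.30), and Dup-C over Dup-L was 1.90 (1.86 to 1.94). In the balanced maps Dup-C stood below WT as well, at 0.795, against 0.679 for Dup-L.

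P and Q, duplicated in both genotypes, contacted each other about equally often. P with Q had 17.4 contacts per pair in WT, 82.0 in Dup-L and 83.8 in Dup-C, from 82664, 365344 and 159822 counted contacts. The fold of Dup-C over Dup-L was 1.02 (1.02 to 1.03). It lay below 1 in the balanced maps (0.914), with scaling to the library total (0.938) and with the scale of the authors' deposited difference maps (0.952), so no direction is read from it. The extra 190 kb was therefore not accompanied by a change of settled direction in the sum of contacts between P and Q.

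Inside that sum, the blocks of P with Q differed by position. The 44 blocks of about 100 kb had folds of 0.654 to 1.22, with a median of 1.05. The lowest joined the start of P, chr11:110960001-111060000, to the end of Q, chr11:112390001-112520000, with 1610 contacts in WT, 15320 in Dup-L and 4286 in Dup-C (0.632 to 0.676). These are the ends of the Dup-L segment. The highest joined chr11:111260001-111380000 to chr11:111390001-111490000 on either side of the boundary bin, with 6936, 17933 and 9380 contacts, a fold of 1.22 (1.19 to 1.25). By rows of P the fold was 0.943 for the first block, 1.03 for each of the next 2 and 1.08 for the last, next to the boundary. By rows of Q it was 1.19 next to the boundary and 0.810 at the end of Q. In the balanced maps the same corner blocks stood at 0.596 and 1.07, so the order from the junction corner to the boundary was the same there.

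Across the boundary bin at short range, contacts were raised over WT in both genotypes. The 100 kb on one side had 62.6 contacts per pair with the 100 kb on the other in WT, 169 in Dup-L and 208 in Dup-C. Dup-C was 1.23-fold above Dup-L (1.20 to 1.26), close to the fold of P with itself (1.20, 1.20 to 1.21) and somewhat above that of Q with itself (1.12, 1.11 to 1.12). In the balanced maps these were 1.08, 1.07 and 0.998. The insulation score, the log2 mean contact count across a bin in a 500 kb diamond relative to all bins, was -1.40 at the boundary bin in WT, -0.62 in Dup-L and -0.42 in Dup-C in the balanced maps. In a 200 kb diamond it was -1.60, -0.98 and -0.91. The boundary bin was the lowest bin within 30 kb in all 3 balanced maps at both sizes. In the raw maps the 500 kb scores were -1.46, -0.09 and 0.23 and the 200 kb scores -1.70, -0.36 and -0.23. The raw 500 kb score of Dup-C thus lay above the level of all bins, and the lowest Dup-L bin lay 10 kb from the boundary bin. In every one of these settings WT was lowest and Dup-C highest. Contacts through the repeat junction fall in the same diamond, and the raw counts also hold the added copies of P and Q. The part of either in the differences between the libraries was not tested.

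The first and last 100 kb of each genotype's own segment lie at opposite ends on the reference and would be neighbours where 1 copy of a tandem repeat meets the next. In Dup-C these corners, chr11:110770001-110870000 with chr11:112420001-112520000, had 10541 contacts, against 1290 in WT and 1795 in Dup-L. In Dup-L the corners, chr11:110960001-111060000 with chr11:112420001-112520000, had 12373 contacts, against 1211 in WT and 3316 in Dup-C. On the scale of WT the Dup-C corner had 12.9 contacts per pair in WT, 19.1 in Dup-L and 262 in Dup-C, a fold of Dup-C over Dup-L of 13.7 (13.0 to 14.4). The Dup-L corner had 12.1, 132 and 82.6, so that Dup-C held 0.626 of Dup-L there (0.602 to 0.651) and 6.82 times WT (6.38 to 7.29). The Dup-C corner was thus raised mainly in Dup-C, while the Dup-L corner was raised in both genotypes and more so in Dup-L. In the balanced maps the folds of Dup-C over Dup-L at these corners were 8.83 and 0.575. After scaling, the Dup-C corner in Dup-C held 1.99 times the contacts of the Dup-L corner in Dup-L (1.94 to 2.04). With the balanced maps the ratio was 1.73. Relative to adjacent 100 kb stretches of WT on the same side of the boundary, the corner stood at 1.30 in Dup-C (exact Poisson interval 1.27 to 1.32) and at 0.652 in Dup-L (0.640 to 0.663).

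The difference between the junctions depended on the separation counted through the junction. At separations of 20 to 100 kb, Dup-C had 273 contacts per pair and Dup-L 157, against 237 between WT neighbours at the same separations. At 210 to 300 kb the values were 132, 86.5 and 81.0, and at 410 to 500 kb 94.9, 86.8 and 53.0. Dup-C over Dup-L was 1.75 (1.69 to 1.81) in the nearest class, 1.88 (1.84 to 1.93) at 110 to 200 kb, 1.52 (1.49 to 1.56) at 210 to 300 kb, 1.30 (1.27 to 1.32) at 310 to 400 kb and 1.09 (1.07 to 1.11) in the farthest. The ratio was therefore highest at 110 to 200 kb, slightly above the nearest class, and fell in each class beyond that. The farthest class is not like for like. There some Dup-L pairs start past the 420 kb of P, in the boundary bin or Q, while all Dup-C pairs start in E or P. In WT the Dup-L pairs of that class had 17.7 contacts per pair, against 13.2 at 310 to 400 kb. The Dup-C pairs had 12.9 and 12.7. How far this enters the ratio of 1.09 was not tested. In WT the same reference pairs held 0.0485 to 0.242 of the neighbour level for Dup-C, from the nearest to the farthest class. For Dup-L they held 0.0581 to 0.334. The part of contacts not made through the junction was not tested in either mutant. The bin sums of P and Q had ratios of 1.16 and 1.14, and how far dosage enters the junction ratios was not tested.

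**Figure D4:**
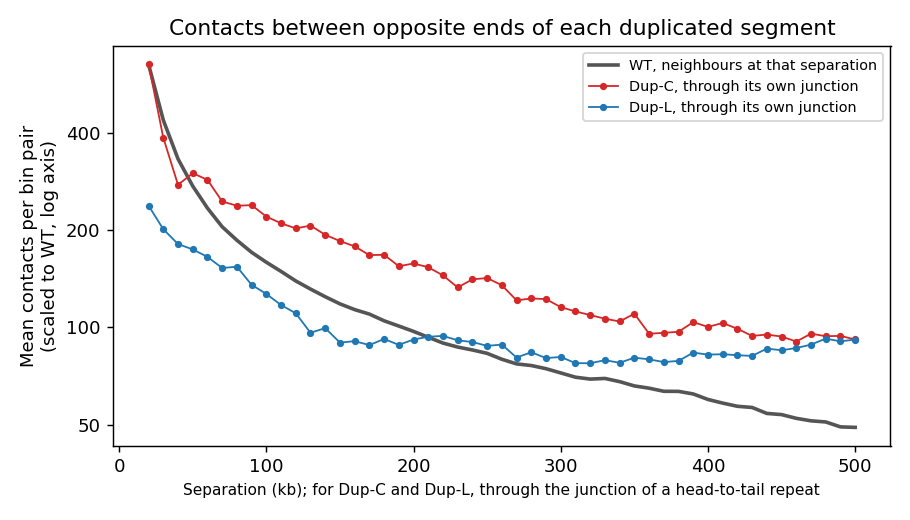
Mean contacts per bin pair (log axis, scaled to WT) against separation in kb, counted through the junction of a tandem repeat for Dup-C and Dup-L and along the chromosome for WT pairs on the same side of the boundary. Dup-C lies above Dup-L in each class, by 1.75-fold at 20 to 100 kb and 1.09-fold at 410 to 500 kb, where some Dup-L pairs start beyond P.

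Aligned by their own starts, the segments also differed. The first 190 kb of the Dup-C segment, which is E, had 125.5 contacts per pair with Q in Dup-C, and the first 190 kb of the Dup-L segment, chr11:110960001-111150000, had 81.0 with Q in Dup-L. The WT levels of these pairs were 15.6 and 14.6. Dup-C was 1.55-fold above Dup-L at the matched place in the repeat (1.54 to 1.56), and the folds over WT were 8.06 and 5.56, or 3.35 and 2.59 in the balanced maps. Across its own start, the 100 kb outside with the 100 kb inside, each duplication lay slightly above WT in the raw maps: 257 contacts per pair in Dup-C against 231 in WT at 110770001, and 181 in Dup-L against 162 in WT at 110960001. The ratios to WT were 1.11 and 1.12, but 0.725 and 0.753 in the balanced maps, so no direction is read from them. At the shared end the values were 251 in WT, 254 in Dup-L and 265 in Dup-C, ratios to WT of 1.01 in Dup-L and 1.06 in Dup-C, against 0.768 and 0.797 in the balanced maps.

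Contacts between the flanks, which an inserted copy would move apart by 1750 kb in Dup-C and 1560 kb in Dup-L, were lower in Dup-C. The centromeric flank with the telomeric flank had 4.07 contacts per pair in WT, 3.00 in Dup-L and 2.24 in Dup-C, a fold of Dup-C over Dup-L of 0.745 (0.737 to 0.754). The fold was 0.619 (0.600 to 0.638) for pairs 1760 to 2500 kb apart on the reference and 0.832 (0.814 to 0.851) for pairs 4010 to 5860 kb apart. The nearest pairs across the repeat thus showed the largest loss. Over WT the nearest pairs stood at 0.390 in Dup-C and 0.631 in Dup-L. WT pairs farther apart by the inserted length held 0.424 (1750 kb) and 0.450 (1560 kb) of the WT level. These values are not specific to the nearest pairs and are not set against 0.390 and 0.631. By class, WT itself had 11.8 contacts per pair at 1760 to 2500 kb and 3.62 at 3010 to 4000 kb. The flanks hold a drift of their own, since blocks within a flank had a median fold of 0.996 under 500 kb apart and of 0.909 at 1000 to 1500 kb, and its part in these folds was not tested.

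Between the flanks and the pieces that both genotypes repeat, differences were small. The centromeric flank with P had 24.8 contacts per pair in WT, 31.0 in Dup-L and 31.2 in Dup-C, a fold of Dup-C over Dup-L of 1.01 (0.998 to 1.01). The centromeric flank with Q had a fold of 0.924 (0.917 to 0.932), P with the telomeric flank 0.982 (0.970 to 0.995) and Q with the telomeric flank 0.980 (0.976 to 0.985). Each differed from 1 by less than 0.1, and in the balanced maps they were 0.981, 0.896, 0.932 and 0.930.

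Over the whole map, the blocks at least 2-fold higher in Dup-C than in Dup-L lay in E. Of 1699 pairs of blocks with at least 50 contacts in both libraries, 37 had a fold of at least 2, which is 2.18%, and 1 had a fold of at most 0.5, which is 0.0589%. All 37 involved E: 22 of 22 blocks of E with Q, 11 of 46 with the telomeric flank, 1 of 8 with P and 3 of 3 within E. The ends of E were located from contact sums in these same maps. That the raised blocks lie in E is therefore partly set by the choice of E. The block at or under 0.5 joined the centromeric to the telomeric flank. In the balanced maps 21 of the same 1699 blocks (1.24%) had a fold of at least 2, all of them E with Q, where 1 of 22 blocks fell short at 1.96. Blocks within E reached at most 0.866 there, E with P 1.14 and E with the telomeric flank 1.40. Fold values at or under 0.5 numbered 2 (0.118%), both between the flanks. In the raw maps neither the 463 blocks within a flank, with folds of 0.608 to 1.19, nor the blocks among P, Q and the flanks reached 2-fold. The bin sums of E, at a median ratio of 2.17, lie near the fold of 2 used here. In the raw maps only E with Q stood clear of it, at a median of 5.80 over its 22 blocks.

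The 5 blocks with the largest gain all joined E to Q. The first joined chr11:110770001-110870000 to chr11:112390001-112520000 at 13.0 (12.4 to 13.6), with 1696 contacts in WT, 2287 in Dup-L and 12711 in Dup-C. The second joined the other part of E, chr11:110870001-110960000, to the same end of Q at 8.95 (8.52 to 9.42). The remaining 3 lay at 7.32 to 7.63. The 5 blocks with the smallest folds, 0.484 to 0.521, all joined the centromeric to the telomeric flank, led by chr11:110310001-110410000 with chr11:112920001-113020000 at 0.484 (0.419 to 0.556), with 2215 contacts in WT, 1150 in Dup-L and 238 in Dup-C.

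**Figure D5:**
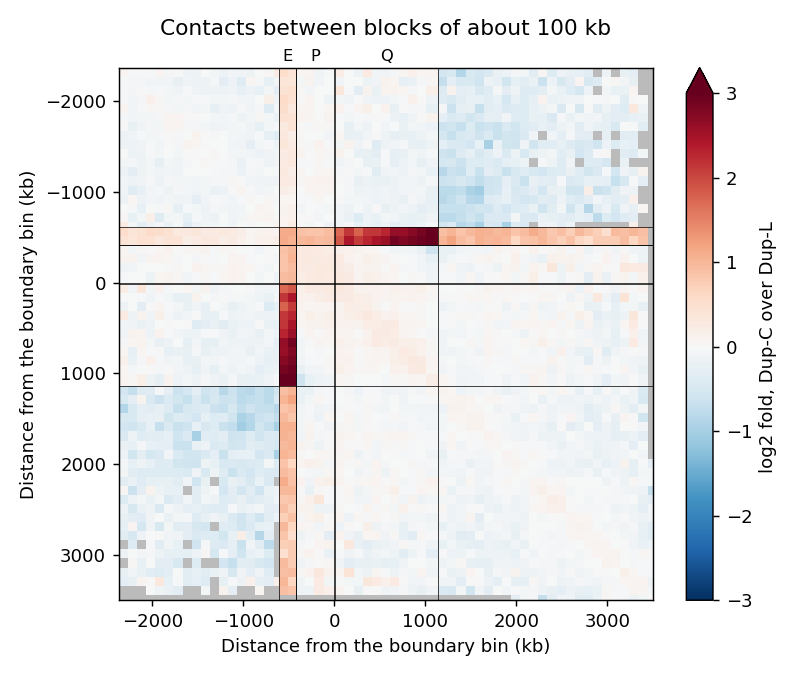
Log2 fold of Dup-C over Dup-L between blocks of about 100 kb, with both axes in kb from the boundary bin; lines mark the ends of E, P and Q, red is higher in Dup-C, blue is higher in Dup-L, and grey marks pairs with under 50 contacts in either library. The band of E with Q has folds of 3.32 to 13.0, 15 of 386 blocks between the flanks lie above 0, and P with Q has folds of 0.654 to 1.22.

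The authors' deposited difference maps, which are scaled raw maps of a mutant minus WT, show E in the same way. In the authors' deposited table for Dup-C, all 2147 bin pairs of E with Q, 100%, were above 0, with a mean difference of 18.8. In their deposited table for Dup-L 80.7% of the same pairs were above 0, with a mean of 1.01. P with Q was above 0 in 99.98% of pairs in the authors' deposited map of Dup-C and in 100% in that of Dup-L, with means of 11.2 and 11.9. The maps share the WT library and were made from the same counts, so they are another scaling and no further evidence.

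In all 6 libraries, E with Q was highest in Dup-C. The fold over WT was 1.22 (1.20 to 1.24) in Dup-S, a duplication within the telomeric side, 1.38 (1.36 to 1.40) in Dup-L and 1.61 (1.58 to 1.63) in deltaBor, which lacks the boundary. It was 2.18 (2.15 to 2.21) in Dup-LdeltaBor, the Dup-L duplication without the boundary, and 8.06 in Dup-C. The intervals of neighbours in this order do not overlap, but each is 1 library against the same WT. In the balanced maps the values were 1.02, 0.983, 1.53, 1.35 and 3.35, so that Dup-C was again highest while the order of the others changed.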

How the data were processed

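The submitters' processing notes name Bowtie2 2.2.6 and the mm9 build. They deposited raw contact counts per pair of 10 kb bins at a mapping quality of 30, per the file names. The deposited signal maps hold the same libraries after KR (Knight-Ruiz) balancing by the authors, per the file names. The difference maps are the authors' deposited mutant minus WT values. The read pair filters, any duplicate removal and the balancing tool were not stated in what was used here. Dup-C positions are offsets, placed from 109010001. With them, the authors' deposited Dup-C difference map equals a linear mix of the Dup-C and WT raw counts.

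Here, contacts under 2 bins apart were left out. Folds carry exact conditional binomial intervals, and shares exact Clopper-Pearson intervals, at 95%. The boundary bin is the WT insulation minimum (500 kb diamond) inside the Dup-L segment. Blocks of 100 kb were tiled from the start of each piece, with a remainder under 50 kb joined to the block before it. Named blocks are the 5 largest gains and the 5 largest losses with at least 50 contacts in both libraries. Pieces, lists and tests were chosen with earlier results of these data known. Alternatives were the balanced maps, 4 other scales, a longer minimum separation, low coverage bins or end bins left out, and other corner sizes. Folds between pieces and their intervals were tested on simulated maps, with independent Poisson counts drawn from the WT map. Shares, insulation scores, junction classes, block calls and balanced maps were not part of that test. Python 3.11.15, NumPy 2.4.6 and SciPy 1.17.1 were used. The other 3 genotypes enter only the 6-library comparison. No other sample was analysed here.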

Additional observations from a re-analysis of the deposited data

How the results depend on the processing

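Of 76 alternative values for 10 results, 22 stayed within the counting interval, 48 moved outside it in the same direction and 6 reversed. No paired analysis was possible because each genotype has 1 library. Dup-C, at 4144258 contacts, limits the precision of far pairs: 45.3% of the bin pairs between the flanks held no contact there, against 13.9% in Dup-L. The scale of the authors' difference maps was added after seeing the data.

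With KR-normalised values, E with E (0.830), P with Q (0.914), Q with Q (0.998) and the centromeric flank with E (0.720) reversed, and E with Q gave 3.40, E with P 1.11, P with P 1.07, the flanks with each other 0.763, the junction ratio 1.73 and the difference in the share of E 19.8 percentage points, against 23.1 in the raw maps. Scaling to the library total reversed P with Q (0.938) and gave 5.37 for E with Q, 1.76 for E with P, 1.98 for E with E, 1.11 for P with P, 1.02 for Q with Q, 1.03 for the centromeric flank with E, 0.684 for the flanks and 1.83 for the junction. The scale of the authors' deposited maps reversed P with Q (0.952) and gave 5.45, 1.78, 2.01, 1.12, 1.04, 1.05, 0.694 and 1.85 in the same order. Scaling on the centromeric flank gave 5.93 for E with Q, 1.94 for E with P, 2.18 for E with E, 1.04 for P with Q, 1.22 for P with P, 1.13 for Q with Q, 1.14 for that flank with E and 0.756 for the flanks. Scaling on the telomeric flank gave 1.01 for P with Q, 1.19 for P with P and 1.11 for Q with Q. Leaving out pairs under 10 bins apart gave 6.04 for E with Q, 1.96 for E with P, 2.25 for E with E, 1.05 for P with Q, 1.24 for P with P, 1.11 for Q with Q, 1.17 for the centromeric flank with E, 0.770 for the flanks and 27.6 percentage points for the share. Leaving out 2 bins on each side of the duplication ends gave 1.88 for E with P, 2.19 for E with E, 1.04 for P with Q, 1.12 for Q with Q and 24.2 percentage points for the share. Corners of 200 kb gave 1.82 for the junction. Leaving out 10 bins of low coverage moved none of these results outside its interval. Blocks of at least 2-fold numbered 37 in the raw and 21 in the KR maps, a count also added after seeing the data. The cause of the reversals was not tested.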
